A study of Arabidopsis thaliana with 6 samples.

Results

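WRKY and NAC proteins are plant transcription factor families, and 7 of the 22746 probe sets on the arrays measured them under a family name. The members are every probe set with a single gene in the probe-to-gene table whose symbol starts with WRKY, or with NAC or ANAC followed by digits. They are WRKY6 (AT1G62300), WRKY20 (AT4G26640), WRKY22 (AT4G01250), WRKY42 (AT4G04450), WRKY47 (AT4G01720), WRKY53 (AT4G23810) and NAC014 (AT1G33060), each with 1 probe set. The names gave 6 WRKY genes and 1 NAC gene, so what follows describes these genes and not the families, which have 67 WRKY symbols and 81 numbered NAC symbols in the RefSeq annotation of TAIR10.1. ZAP1, for which RefSeq gives WRKY1 as a synonym, is described below as a listed gene. The other family genes were not analysed here.

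The samples were whole 15-day-old Arabidopsis thaliana seedlings of ecotype Col-0, either wild type or the gapcp1gapcp2 double mutant, with 3 arrays each. GAPCP1 and GAPCP2 encode forms of glyceraldehyde-3-phosphate dehydrogenase that carry out glycolysis in plastids, and which alleles the mutant carries is not given in the sources used here. Both genotypes had grown vertically on MS medium with Gamborg vitamins under 16 h of light and 8 h of dark at 22 °C, and both had received 0.75 µM abscisic acid (ABA), the hormone of drought stress and of dormant seeds, for 8 days. Every sample was treated, so levels are those of ABA-grown seedlings, and untreated seedlings were not analysed here. The titles call the arrays of a genotype biological replicates, and p-values measure the spread between these arrays.

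WRKY proteins carry a short conserved peptide, from which they are named, beside a zinc finger, and bind the W-box of target promoters. They are divided into groups by the number of WRKY domains and the type of zinc finger. NAC proteins share a DNA-binding domain at the N terminus, and some are held at membranes until they are released to enter the nucleus. Genes of both families are known for roles in defence, leaf senescence, drought and ABA responses, and many of them respond within a short time to stress or touch.

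On the arrays, medians lay between 105.8 and 113.0 and between 395 and 785 values per array were below 0. The main axis of variation between arrays (43.4% of the variance) was not that of genotype, with 0.050% of it between the genotypes. The probe table names no probe set for GAPCP1 or GAPCP2, so the genotype labels were not checked on their transcripts. Of 10 leaf and photosynthesis markers 3 were named, with a summed intensity of 26228 to 28600 in wild type and 26201 to 27772 in the mutant. Of 10 root markers 4 were named, with a summed intensity of 5440 to 7548 and 5004 to 7123. The 3 leaf markers and the root markers PYK10 and NAI2 were above the array median on 6 of 6 arrays. The root marker EXPA18 was above it on 3 of 6 and EXPA7 on 0 of 6, and PYK10 gave most of the root sums. No marker of seed and embryo or of xylem was named.

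Of the 7 members, 6 lay above the filter that left out the dimmest 30% of probe sets by mean log2(value + 16). The exception was WRKY42. The deposited table holds no detection calls, so the distance from the dim end of the array is the measure of expression used here, and intensities of different probe sets are not compared as amounts of transcript. WRKY6, WRKY20, WRKY22, WRKY53 and NAC014 were above the array median on 6 of 6 arrays, and WRKY47 on 5 of 6, the exception being mutant 2. WRKY42 was below it on 6 of 6.

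No member passed the test between the genotypes. With limma, fitted over the 15922 probe sets above the filter and adjusted by Benjamini-Hochberg, 0 of the 6 members tested passed a threshold of 0.05 as higher in the mutant and 0 passed as lower, as for 0% of all probe sets in each direction. At an unadjusted p under 0.05 there was 1 member, WRKY53, against 1.70% of all probe sets tested. WRKY53 was also the 1 member whose 3 mutant arrays all lay on one side of the 3 wild type arrays, which held for 6.29% of all probe sets. With 6 members, 1 call of either kind is too few to read as a property of the families. Of the fitted differences, 3 lay above 0 and 3 below, with a median of 0.029 on the log2 scale, where the median of all probe sets tested was -0.0032.

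WRKY53 belongs to WRKY group III and is known as an early regulator of leaf senescence that also acts in defence. Its intensity was 154.9, 136.5 and 151.9 in wild type 1, 2 and 3, and mutant 1, 2 and 3 had 183.4, 205.1 and 174.6. The highest wild type array was below the lowest mutant array, so the genotypes did not overlap. The mean of the mutant arrays (188 ± 15.7) was 1.27 times that of the wild type arrays (148 ± 9.87; SD, n = 3). The log2 difference was 0.31 ± 0.11 (SE), with a 95% interval from 0.059 to 0.57, a limma p of 0.0213 and an adjusted p of 1.00. An exact permutation test over the arrays gave a two-sided p of 0.10, the smallest that 3 arrays against 3 can give. With each array left out the estimate ranged from 0.25 to 0.36. Its sign could not turn there, since the genotypes did not overlap. The unadjusted limma p of WRKY53 became 0.0800 without wild type 2 and 0.0689 without mutant 2. These are the arrays with the lowest and the highest value of WRKY53. In whole seedlings, a change in the share of cells that express a gene and a change of transcript per cell cannot be told apart.

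**Figure D1:**
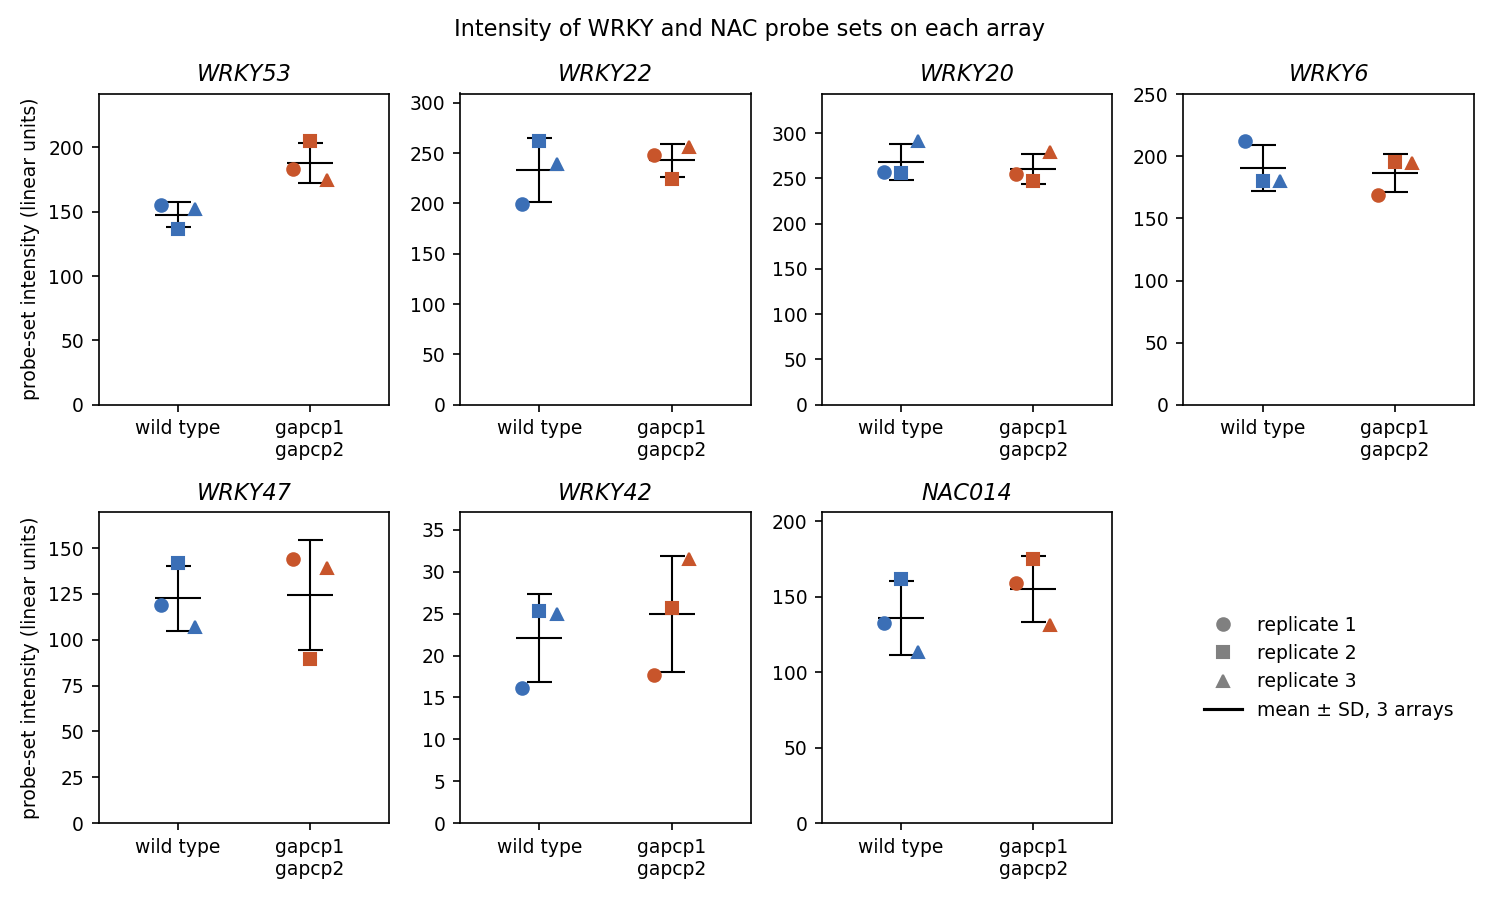
Probe-set intensity (linear units, axis from 0) of each WRKY and NAC member on each array, by genotype; symbols mark the replicate number, horizontal bars the mean and whiskers the SD of 3 arrays. The mutant arrays of WRKY53 (174.6 to 205.1) lie above its wild type arrays (136.5 to 154.9), and the genotypes overlap for the other members.

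WRKY22 belongs to group IIe and is known to act downstream of a MAP kinase cascade in the response to bacterial flagellin. Its intensity was 199.3, 262.1 and 239.3 in wild type 1, 2 and 3, and mutant 1, 2 and 3 had 247.7, 224.1 and 256.5. Wild type held both the lowest and the highest array, so the mutant arrays lay within the wild type range. The log2 difference was 0.058 ± 0.12 (SE), with a 95% interval from -0.22 to 0.34 (exact permutation p = 0.70, limma adjusted p = 1.00). Without wild type 1, its lowest array, the estimate was -0.044.

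WRKY20 belongs to group I, whose members carry a pair of WRKY domains. Its intensity was 257.5, 256.1 and 291.5 in wild type 1, 2 and 3, and mutant 1, 2 and 3 had 255.4, 247.4 and 279.2. The third array was the highest of each genotype, and the remaining arrays lay close together. The log2 difference was -0.039 ± 0.10 (SE), with a 95% interval from -0.28 to 0.20 (exact permutation p = 0.50, limma adjusted p = 1.00). Without wild type 3 it was 0.019.

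The remaining WRKY members, WRKY6, WRKY42 and WRKY47, belong to group IIb. WRKY6, known for repressing the phosphate exporter gene PHO1 and for its rise in senescence, had 212.4, 179.9 and 180.4 in wild type 1, 2 and 3, and mutant 1, 2 and 3 had 169.1, 195.8 and 194.9. Its highest array was a wild type and its lowest a mutant array, and the others overlapped. The log2 difference was -0.030 ± 0.12 (SE), with a 95% interval from -0.29 to 0.23 (exact permutation p = 0.80, limma adjusted p = 1.00).

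WRKY47 had 118.9, 142.0 and 106.9 in wild type 1, 2 and 3, and mutant 1, 2 and 3 had 143.8, 89.7 and 139.1. Mutant 2 was its lowest array and mutant 1 its highest, so the mutant range enclosed all wild type arrays. These mutant arrays spanned 0.60 on the log2(value + 16) scale, the widest range within a genotype among the members. The next widest were 0.50 for the mutant arrays of WRKY42 and 0.46 for the wild type arrays of NAC014. The means of WRKY47 were 123 ± 17.8 for wild type and 124 ± 29.96 for the mutant (SD, n = 3). The limma estimate was -4.4e-05 ± 0.18 (SE), with a 95% interval from -0.41 to 0.41 (exact permutation p = 1.00, limma adjusted p = 1.00). Without mutant 2 the estimate was 0.19, and without wild type 2 it was 0.098.

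WRKY42, which is also known to act on phosphate transporter genes, was the dim member. Its intensity was 16.09, 25.29 and 24.99 in wild type 1, 2 and 3, and mutant 1, 2 and 3 had 17.67, 25.62 and 31.47. Replicate 1 was the lowest of each genotype, and the genotypes overlapped. None of these values was below 0, while the 1st percentile of all values lay between -15.8 and -2.80 on the arrays. The probe set was not in the fit. The mean difference was 0.098 on the log2(value + 16) scale, with an exact two-sided permutation p of 0.50, and this scale understates the change of so dim a signal.

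NAC014 belongs to the NAC proteins that carry a membrane anchor. Its intensity was 132.4, 162.1 and 113.6 in wild type 1, 2 and 3, and mutant 1, 2 and 3 had 159.2, 174.7 and 131.4. The highest array was a mutant and the lowest a wild type array, but wild type 2 lay above mutant 1 and mutant 3. The means were 136 ± 24.5 and 155 ± 22.0 (SD, n = 3). The log2 difference was 0.17 ± 0.15 (SE), with a 95% interval from -0.18 to 0.52 (exact permutation p = 0.50, limma adjusted p = 1.00), and it ranged from 0.066 to 0.30 with each array left out.

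**Figure D2:**
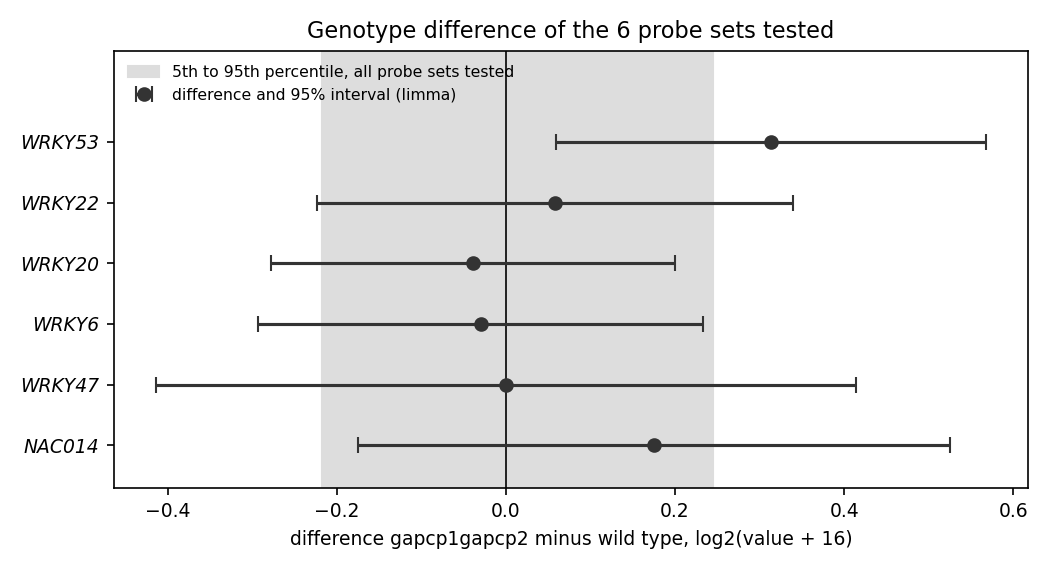
Difference of gapcp1gapcp2 minus wild type on the log2(value + 16) scale for the 6 members in the limma fit, with 95% intervals; the grey band spans the 5th to the 95th percentile of the differences of all 15922 probe sets tested (-0.22 to 0.25). WRKY53 (0.31) lies outside the band, and the intervals of the other 5 members include 0.

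Across the 6 members tested, the lowest bound of a 95% interval was -0.41 and the highest 0.57, a 1.48-fold difference on the log2(value + 16) scale. The intervals of WRKY6, WRKY20, WRKY22, WRKY47 and NAC014 included 0 and do not show that the genotypes are alike. The median absolute difference was 0.049 for the members and 0.077 for all probe sets tested. These sets were not matched in intensity.

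The members differed from each other in how far arrays of 1 genotype lay apart. The SD within genotype on the log2(value + 16) scale was 0.093 for WRKY20, 0.10 for WRKY53, 0.12 for WRKY6 and 0.15 for WRKY22. It was larger for NAC014, at 0.21, and for WRKY47, at 0.27. Among the 4324 probe sets tested whose mean intensity lay between those of the dimmest and the brightest tested member (123 to 265), the median SD was 0.16, and 15.2% had a smaller SD than WRKY20, 18.1% than WRKY53, 72.3% than NAC014 and 85.0% than WRKY47. The genotype difference of WRKY53 was the largest of the 6 and its spread the second smallest. Its limma p is computed from the same arrays, so this is not a further result.

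**Figure D3:**
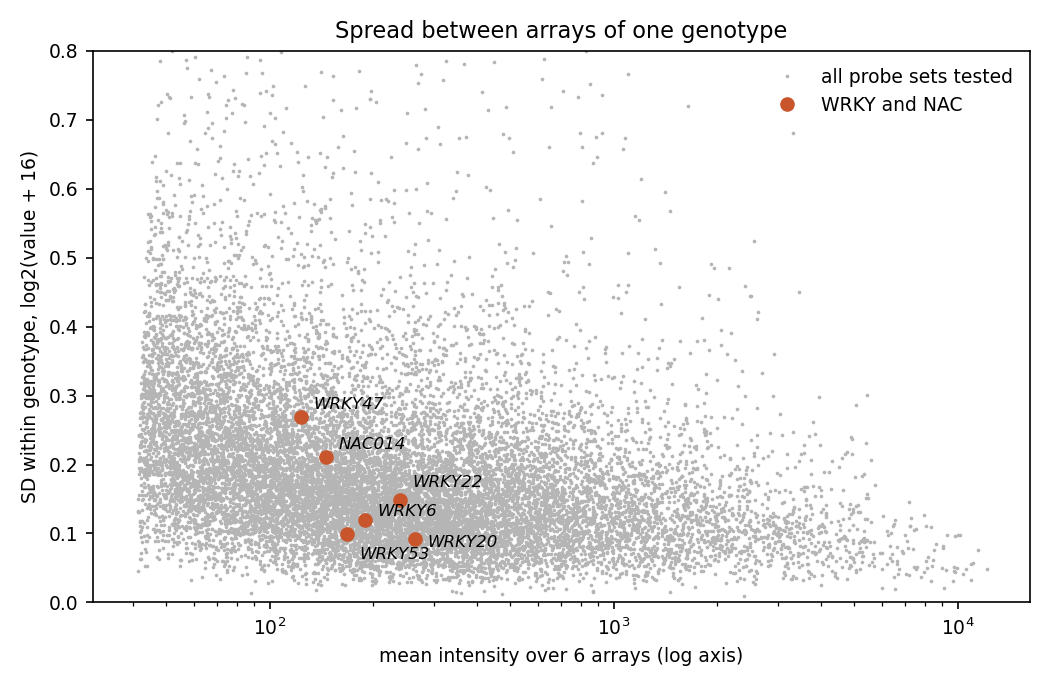
SD between arrays of one genotype on the log2(value + 16) scale against mean intensity over 6 arrays (log axis), for all 15922 probe sets tested (grey) and the 6 members tested (orange); 84 grey points above an SD of 0.80 are not shown. The members run from 0.093 (WRKY20) to 0.27 (WRKY47) and lie within the cloud.

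No single array was high or low for all members. Each of the 6 arrays was the highest for at least 1 member, and mutant 2 was the highest for 2 (WRKY53 and NAC014) and the lowest for 2 (WRKY20 and WRKY47). WRKY22 and WRKY47 were higher in wild type 2 than in wild type 1 and higher in mutant 1 than in mutant 2. WRKY6 and WRKY53 ran the other way in both genotypes. Of all probe sets tested 35.1% ran the first way and 32.5% the second, so 2 of 6 members in each is close to the share of all probe sets. The 4 named root markers, which include PYK10, the root beta-glucosidase of ER bodies, also ran the way of WRKY6 and WRKY53, 4 of 4, and 0 of the 3 leaf markers did. The summed root marker intensity was highest in wild type 1 (7548) and mutant 2 (7123) and lowest in wild type 2 (5440) and mutant 1 (5004). PYK10 alone gave most of each of these sums (6109, 5514, 4383 and 4073 in the same order). The part of the root markers in the members' spread was not tested.

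**Figure D4:**
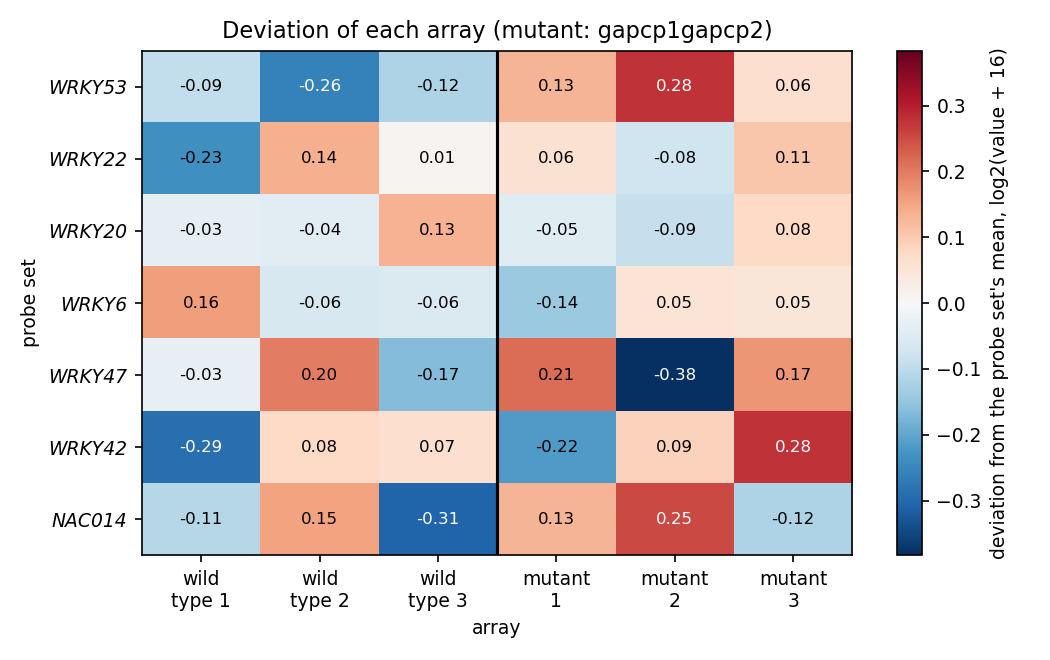
Deviation of each array from the mean of the probe set over 6 arrays, on the log2(value + 16) scale, for the 7 members (rows) and the arrays (columns, wild type left of the line and gapcp1gapcp2, written mutant, right of it). WRKY53 is below its mean on the 3 wild type arrays and above it on the 3 mutant arrays, and the other members change sign within a genotype.

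The genes linked to these factors that could be tested gave no call either. From lists of WRKY partners and upstream kinases, WRKY-dependent defence genes, NAC-dependent senescence and secondary wall genes, ABA signalling, ABA-responsive and handling-response genes, and WRKY group I, 15 of 162 listed symbols other than the members were named by a probe set, and 14 were tested. Of these, 0 passed the adjusted threshold as higher and 0 as lower, and for 0 was the unadjusted limma p under 0.05. Their log2 differences ran from -0.25 to 0.089 with a median of -0.033, and 6 lay above 0 and 8 below. The secondary wall list (17 symbols) and the ABA signalling list (31 symbols) had 0 named genes, so neither was tested. The lists of WRKY partners and upstream kinases and of NAC-dependent senescence genes had 1 tested gene each.

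The listed gene closest to the members was ZAP1, for which RefSeq gives WRKY1 as a synonym and which the symbol rule therefore left out. It had 237.9, 251.6 and 243.8 in wild type 1, 2 and 3, and mutant 1, 2 and 3 had 215.7, 214.9 and 203.2. All mutant arrays were below all wild type arrays, the opposite side to WRKY53. Such a separation, in either direction, held for 6.29% of all probe sets tested, and ZAP1 was among 14 listed genes tested. The log2 difference was -0.20 ± 0.096 (SE), with a limma p of 0.0711, an adjusted p of 1.00 and an exact permutation p of 0.10. Its 95% interval, from -0.41 to 0.021, included 0.

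EFR, a receptor kinase of bacterial elongation factor whose signalling reaches WRKY genes, gave 67.9 ± 4.19 in wild type arrays and 69.6 ± 20.02 in mutant arrays (SD, n = 3). Among genes downstream, SAG101, of defence and senescence, differed by -0.22 ± 0.20 (SE) on the log2 scale, and PDF1.2, for a defensin, by -0.13 ± 0.18. SAG29, a senescence-associated gene and the listed target of NAC regulation that was named, had 45.4, 98.7 and 43.9 in wild type 1, 2 and 3, and mutant 1, 2 and 3 had 106.9, 11.9 and 57.4. Its arrays differed more within a genotype than between them, and the log2 difference was -0.25 ± 0.50 (SE). Of the ABA-responsive genes 0 of 5 passed, and COR47 had 0.050 ± 0.25 and COR15B 0.045 ± 0.10. Of the handling-response genes 0 of 4 tested passed, and PUB22, a ubiquitin ligase gene, had -0.15 ± 0.20 and the zinc finger gene STZ 0.076 ± 0.22.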

How the data were processed

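The authors deposited linear probe-set intensities, with GCOS named in the submitters' processing notes; how probes were summarised and scaled, and by which version, is not given in the sources used here. Values below 0 show that something had been subtracted. Groups and replicate numbers came from the titles; a free-text label that speaks of embryos was not used. The members and gene lists were chosen with earlier results of these data known. Probe sets were named through the platform's annotation (13513 probe sets with 1 gene, 503 with several, 8730 unnamed here), and 7 of 7 members matched RefSeq by gene ID. No coordinates are given, since the deposited intensities name no build, and no sequence was used.

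Negative values were set to 0 before taking log2(value + 16); the lowest 30% of probe sets by mean were left out. limma 3.58.1 in R 4.3.3 (lmFit, eBayes with trend, two-sided) was fitted over all remaining probe sets, with Benjamini-Hochberg adjustment at 0.05. A check on simulated data used independent noise and larger differences than those of the members, so it does not cover differences of their size. All 7 members were described, and from each list the genes with the smallest p and the highest mean. Alternatives are given in the closing section. The number of arrays limits the precision. Figures were drawn with matplotlib 3.10.9.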

Additional observations from a re-analysis of the deposited data

How the results depend on the processing

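Under all 16 alternatives limma placed 0 probe sets, and 0 members, past an adjusted p of 0.05, and the smallest adjusted p of any probe set was 0.999. The count of 1 member (WRKY53) at an unadjusted p under 0.05 became 0 with the replicate number as a block (the limma p of WRKY53 rose to 0.0698), and ranged from 0 to 1 with each array left out; it was 0 without wild type 2 or mutant 2. Deviations of same-numbered arrays correlated at -0.59, -0.49 and -0.13, and 0 of 6 arrays correlated best with its own number, so the numbers were not treated as pairs; the block moved the count of all probe sets at an unadjusted p under 0.05 from 271 to 136. The count of members with no overlap ranged from 1 to 2 with each array left out, which takes fewer arrays to separate, and was 2 without mutant 3, where the share of all probe sets with no overlap was 15.3% in place of 6.29%; over the arrays left out that share ran from 13.4% to 15.8%. Among all probe sets the unadjusted count rose to 619 when no filter was applied and fell to 115 under a 50% filter. The median WRKY difference ranged from -0.060 to 0.11 with each array left out, with 0.098 without wild type 2 and 0.11 without mutant 2. WRKY53 and NAC014 kept their sign under every alternative. The estimate of WRKY47 turned to 0.0020 with quantile normalization, 0.0056 with median centring and 0.0035 with a pseudocount of 64. That of EFR turned to -0.0057 with quantile normalization, -0.0013 with a pseudocount of 1 and -1.7e-05 with a generalized log2 in place of the floor, and that of RCA, a leaf marker, to 0.0044 with quantile normalization and 0.00027 with median centring. Leaving out each array in turn gave ranges for WRKY6 (-0.067 to 0.044), WRKY20 (-0.087 to 0.019), WRKY22 (-0.044 to 0.14), WRKY47 (-0.11 to 0.19), EFR (-0.18 to 0.14), PDF1.2 (-0.31 to 0.025), SAG29 (-0.73 to 0.34), COR47 (-0.18 to 0.30), COR15B (-0.0056 to 0.095), PUB22 (-0.31 to 0.083), STZ (-0.049 to 0.29), RCA (-0.031 to 0.032), PYK10 (-0.16 to 0.085) and the guard cell marker FMA (-0.18 to 0.034). Leaving out an array also leaves fewer samples, and the cause of these turns was not tested. WRKY42 entered the fit only without the filter and did not pass there, and its dim signal limits it.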
